A study of Mus musculus with 37 samples.

Results

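Neurons are recognised by a set of genes for their cytoskeleton, their RNA-binding proteins and their synapses, and 33 such genes were followed here in cultures of mouse primary astrocytes. Members were taken from a list of gene names rather than by a cut-off on measured values, and each was represented by the probe set (a group of oligonucleotides on the array that report on 1 transcript) with the highest mean over all 37 arrays. Of the 33 genes 32 had such a probe set, among 18194 genes on the array, and the expression of Grin1 is not analysed here. The genes fall into 6 roles, namely neuronal cytoskeleton, neuronal RNA-binding proteins, vesicle and SNARE proteins, transmitter synthesis and vesicular transport, glutamate receptors and postsynaptic proteins, and secreted or other neuronal proteins.

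At a chemical synapse, vesicles filled with transmitter fuse with the presynaptic membrane through SNARE proteins when a calcium sensor is engaged, and receptors anchored by scaffold proteins answer on the other side. Neurons build the axons and dendrites that carry these synapses on microtubules, with tubulin isotypes and associated proteins enriched in neurons, and on neurofilaments. Astrocytes are the glial cells that take up glutamate and buffer ions around synapses, and they also use a part of the same vesicle and receptor genes.

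The astrocytes came from newborn mice of postnatal day 0 to 1 and were grown in 20% fetal bovine serum. They were nucleofected with 5 µg of a plasmid for CDCA7L, a MYC-binding nuclear protein, or with the same pcDNA3.1-hygro plasmid left empty, and the labels call the cells stably transfected. Animals were of strain 129S4/SvJae (129) or C57BL/6J (B6) and of either sex, so that the 8 groups were 129 females with vector (4 arrays) or Cdca7l (4), 129 males with vector (5) or Cdca7l (5), B6 females with vector (5) or Cdca7l (4), and B6 males with vector (5) or Cdca7l (5). All groups thus share the culture, the nucleofection and the plasmid backbone, and 10 ng of RNA from each was amplified before hybridisation to 1 one-colour array. Each array carries a clone label such as 2(3), and labels recur between the Cdca7l and vector arrays of a strain and sex. The labels do not say which cultures came from separate animals, so p-values measure the spread between these cultures.

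All values are log2 expression as deposited. The median of the whole table, 3.189, served as the background level, and an array is called above background where it exceeds it. Cdca7l itself lay between 4.12 and 10.43 on the 19 vector arrays and between 10.15 and 14.42 on the 18 Cdca7l arrays, and within each strain and sex the highest vector array was below the lowest Cdca7l array. The upper quartile of all values was 9.03 to 9.51 on 36 arrays and 8.36 on 129 female vector 1(3). Xist on the array labelled B6 female vector 5.1(1) was at 2.40, where the other 16 female arrays had 10.71 to 12.20 and the 20 male arrays 2.30 to 2.50. The Y-linked Eif2s3y was at 11.91 on this array, against 2.26 to 2.73 on the other female and 11.73 to 12.71 on the male arrays, so both genes stood at the male level. It was counted with the B6 females, as labelled. Leaving out both arrays left the count of genes called between strains at 11, the same 11 genes. Of all tested probe sets 27.6% were then called, against 25.2% with all arrays. The count between sexes stayed at 0, where 1.02% of all tested probe sets were called, against 0.321% with all arrays. Of 12 astrocyte markers 9 were above background on every array, Slc1a2 on 36, S100b on 13 and Gjb6 on 3, and their summed linear level per array was 33818 to 136320 arbitrary units. Neural progenitor markers were above it on every array for 7 of 9 with a probe set, with Sox2 at 11.91 to 13.50 and Pax6 at 8.84 to 11.12. Their summed linear level was 54522 to 79886. Of 11 oligodendrocyte lineage markers 3, and of 8 fibroblast and meningeal markers 4, were also above background on every array. Of 12 microglia and macrophage markers Cd68 was above background on all 37 arrays, C1qb on 18 (highest value 12.04), Tyrobp on 12, Csf1r on 11, Ptprc on 9 and 3 others on 3 or 4, while Cx3cr1, Itgam, Trem2 and P2ry12 stayed at background on all arrays. Their summed linear level was highest, at 7940.2, on an array of 129 males with vector.

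Regulatory sequences are shown for the 4 genes with the largest differences between the strains in the sections that follow, as the 250 bases before the annotated start, 5′ to 3′ on the strand of the gene, from RefSeq on build GRCm38.p6. Capitals mark matches to 3 short motifs searched on both strands: CAGCACC and GGACAGC, the cores of the left and right half-site of RE1, the element bound by REST, a repressor of neuronal genes outside neurons, and TATAAA, the TATA box. Coordinates run chr2:70561879-70562128 on the plus strand for Gad1, chr3:80802836-80803085 on the minus strand for Gria2, chr8:123411303-123411552 on the plus strand for Tubb3 and chr10:109010976-109011225 on the minus strand for the first of 2 Syt1 promoters.
Gad1: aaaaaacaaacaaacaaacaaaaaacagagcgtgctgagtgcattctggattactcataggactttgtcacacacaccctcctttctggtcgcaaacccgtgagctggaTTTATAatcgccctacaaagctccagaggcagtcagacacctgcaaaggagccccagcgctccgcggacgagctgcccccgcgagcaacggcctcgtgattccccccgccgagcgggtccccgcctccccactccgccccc
Gria2: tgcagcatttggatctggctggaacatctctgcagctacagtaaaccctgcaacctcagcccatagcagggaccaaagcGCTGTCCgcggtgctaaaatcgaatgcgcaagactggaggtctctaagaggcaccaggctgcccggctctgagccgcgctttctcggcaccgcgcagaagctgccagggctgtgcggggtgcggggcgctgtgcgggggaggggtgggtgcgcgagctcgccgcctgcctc
Tubb3: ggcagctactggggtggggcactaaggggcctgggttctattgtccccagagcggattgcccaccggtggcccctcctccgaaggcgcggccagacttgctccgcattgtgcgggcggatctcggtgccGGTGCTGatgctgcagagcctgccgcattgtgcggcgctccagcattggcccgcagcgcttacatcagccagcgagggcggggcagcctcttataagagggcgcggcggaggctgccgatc
Syt1: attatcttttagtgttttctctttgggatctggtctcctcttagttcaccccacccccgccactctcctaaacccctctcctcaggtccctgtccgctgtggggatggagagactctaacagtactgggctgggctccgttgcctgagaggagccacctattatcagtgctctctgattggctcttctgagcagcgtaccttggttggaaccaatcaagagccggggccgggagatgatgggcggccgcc
The Gad1 window holds the TATA box letters on the opposite strand 141 bases before the start, the Gria2 window the right half-site core on the opposite strand 171 bases before it, and the Tubb3 window the left half-site core on the opposite strand 121 bases before it. Neither Syt1 window holds any of the 3 motifs. RefSeq promoters were matched for 23 of the 33 genes, Grin1 included, 32 promoters in all. CAGCACC was in 3 of these 32 (Nlgn1, Syn1, Tubb3) and in 5.732% of 32851 promoters of the same length, GGACAGC in 3 (Gad2, Gria2, Map2) and in 5.284%, and TATAAA in 4 (of Dcx, Elavl3 and Gad1) and in 12.37%. The Dcx promoters overlap, and their TATAAA matches are the same letters of the genome. The matches are a description of these letters and not evidence that a factor binds there.

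Across the 37 arrays, 11 of the 32 genes were above background on every array: Map2, Stmn2, Celf4, Syt11, Syp, Syn1, Vamp2, Stx1a, Dlg4, Nlgn1 and Uchl1. A further 12 were above it on 4 to 36 arrays, 4 on 1 to 3 arrays and 5 on none. Genes at background on all arrays were Dcx, the microtubule-binding protein of migrating young neurons (highest value 2.44), Nefh, the heavy neurofilament subunit (2.56), Rbfox3, which encodes the neuronal nuclear antigen NeuN (2.47), and the vesicular glutamate transporters Slc17a6 (2.82) and Slc17a7 (2.32). The light neurofilament gene Nefl, Elavl4 and the SNARE gene Snap25 exceeded background on 3 arrays each, with highest values of 4.89, 4.72 and 4.06, and Gad2, the second GABA-synthesising enzyme, on 2, with 3.30. Genes at or near background and genes above it on every array thus occurred side by side within the same roles, as with Nefh and Map2 in the cytoskeleton or Snap25 and Vamp2 among the SNARE genes. Since the arrays hold bulk RNA, a difference in the number of cells that express a gene cannot be told apart from a difference in RNA per cell. The 23 genes above background on at least 4 arrays entered the tests, and the other 9 did not. This filter also kept genes that exceed background in 1 group alone.

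Between the strains, 11 of the 23 tested genes passed a Benjamini-Hochberg adjusted p under 0.05 in limma (B6 minus 129, averaged over sex and plasmid), 9 higher and 2 lower in B6. Over all 25579 tested probe sets 25.2% passed, 14.6% higher and 10.6% lower in B6, so the genes' share of 47.83% stands beside a high background. The 2 shares differ in unit, since each gene counts by its highest probe set and the background by every tested probe set. With probe sets averaged per gene, 9 of 22 of these genes passed, against 27.7% of 11833 genes. Gria2, Gad1 and Tubb3 had the largest positive differences, each more than 2 on the log2 scale, and Syt1 the largest negative one. The median difference over the 23 genes was 0.36, against -0.0047 over all tested probe sets. Strain cannot be told apart from anything else that differed between the cultures of each strain. The p-values below take no account of shared clone labels. With clone labels as a random replicate block 10 of the 23 genes passed, beside 16.6% of all tested probe sets. In that fit the adjusted p in limma was 0.0344 for Syt11 and 0.0293 for Gria2, and Syp did not pass. In the accounts below, the values of a group follow the order of its clone labels. For 129 females these are 1(3), 2(1), 2(3) and 4(1) with vector and the same with Cdca7l. For 129 males they are 3(1), 3(2), 3(3), 5(1) and 5(2) with vector, and 1(4), 3(1), 3(2), 3(3) and 5(1) with Cdca7l. For B6 females they are 2.1(1), 3(3), 4(5), 5.1(1) and 6(3) with vector, and 1(4), 3(3), 4(5) and 6(3) with Cdca7l. For B6 males they are 2(2), 2(4), 3(5), 4(3) and 5.6(1) with vector, and 2(2), 3(5), 4(3), 5(3) and 5.6(1) with Cdca7l.

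**Figure D1:**
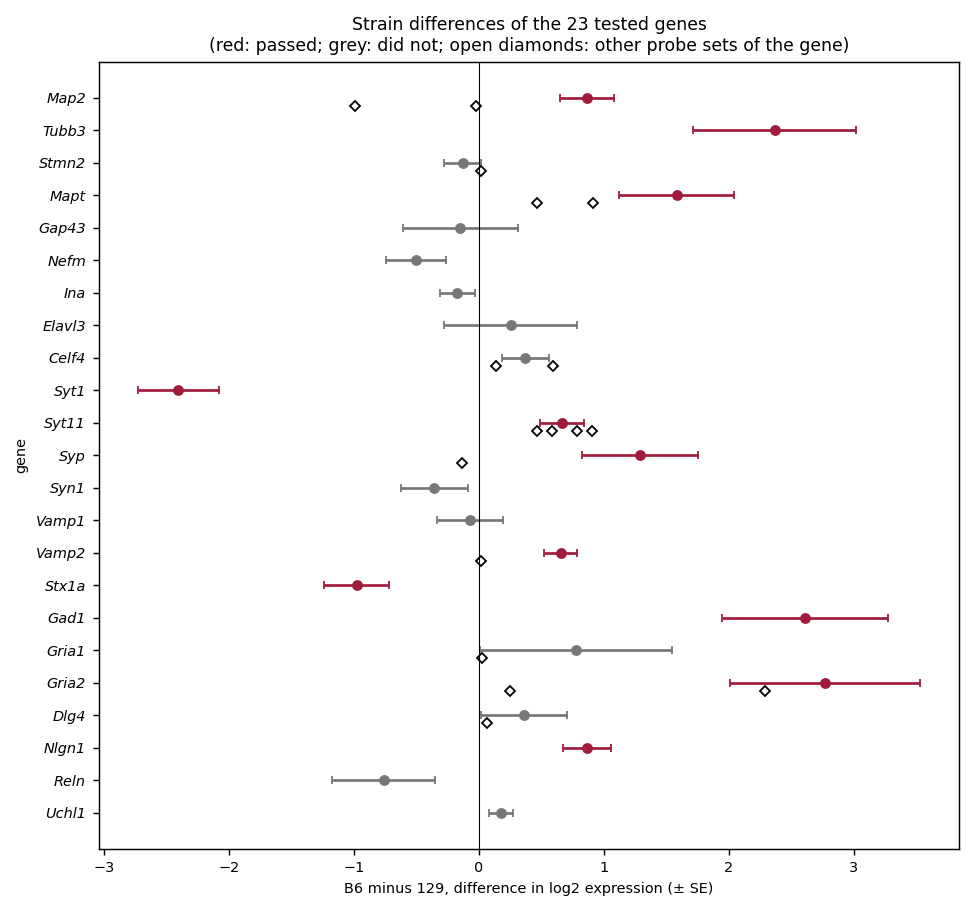
Difference B6 minus 129 in log2 expression (points, with the standard error from limma) for the 23 tested genes, averaged over sex and plasmid, with genes that passed in red and the differences of other probe sets of the same gene as open diamonds. Gria2, Gad1 and Tubb3 lie between 2.37 and 2.77 and Syt1 at -2.40, and a second Map2 probe set lies on the other side of 0 at -0.99.

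Among the 10 cytoskeletal genes 7 were tested, and Map2, Tubb3 and Mapt were higher in B6, with adjusted p-values from limma of 0.0043, 0.0086 and 0.0123. Map2, which binds and spaces the microtubules of dendrites, was high in all groups. Map2 levels in 129 females were 8.91, 10.94, 11.37 and 10.56 with vector and 11.47, 10.67, 10.85 and 10.81 with Cdca7l. In 129 males, Map2 was at 10.17, 11.54, 11.13, 10.36 and 11.37 with vector and at 11.68, 9.74, 11.73, 11.58 and 10.03 with Cdca7l. The lowest value was that of the array with the low upper quartile, 129 female vector 1(3), and among 129 males both arrays of labels 3(1) and 5(1) were below all others of that sex. B6 females had Map2 at 11.41, 11.65, 11.34, 11.85 and 11.42 with vector and at 11.92, 11.66, 11.40 and 11.22 with Cdca7l. In B6 males, Map2 was at 12.55, 11.90, 11.54, 10.79 and 12.78 with vector and at 12.20, 11.35, 11.43, 11.61 and 11.96 with Cdca7l. B6 exceeded 129 by 0.86 ± 0.216 (SE), a fold of 1.82, and by 0.60 to 1.09 in each of the 4 combinations of sex and plasmid. The strains overlapped: 7 of 19 B6 arrays were above the highest 129 array and 7 of 18 129 arrays below the lowest B6 array. Other Map2 probe sets did not follow, with -0.99 (adjusted p = 0.0008 in limma) for 1440699_at, which ran from 2.21 to 5.30, and -0.02 for 1421328_at. Averaged over its probe sets, Map2 differed by -0.04 and did not pass, so the Map2 call is that of 1 probe set.

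Tubb3, the neuronal beta-tubulin shown above by its promoter, ranged from background to 10.29. Tubb3 levels in 129 females were 2.04, 5.89, 8.23 and 3.14 with vector and 4.55, 3.17, 3.15 and 3.18 with Cdca7l. In 129 males, Tubb3 was at 3.95, 7.60, 7.60, 4.49 and 5.75 with vector and at 2.37, 5.93, 8.63, 3.17 and 5.10 with Cdca7l. In 129 females with Cdca7l, 3 of 4 arrays were at 3.15 to 3.18, just under background, and the highest 129 values were those of 3(2) in males with Cdca7l (8.63) and of 2(3) in females with vector (8.23). B6 females had Tubb3 at 10.29, 5.20, 6.69, 6.92 and 7.81 with vector and at 8.23, 6.21, 5.73 and 8.59 with Cdca7l. In B6 males, Tubb3 was at 9.24, 7.67, 2.05, 7.69 and 8.59 with vector and at 8.80, 5.67, 7.79, 6.25 and 7.03 with Cdca7l. Of 19 B6 arrays 18 were above background, against 11 of 18 in 129, and the exception was B6 male vector 3(5). The strains differed by 2.37 ± 0.652 (SE; adjusted p = 0.0086 in limma), a fold of 5.16, or 2.30 with values under background raised to it. The difference was positive in all 4 combinations of sex and plasmid, from 1.17 to 3.68.

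Mapt encodes tau, the microtubule-binding protein of axons. Mapt levels in 129 females were 2.76, 2.59, 3.14 and 2.65 with vector and 5.10, 2.65, 2.61 and 2.58 with Cdca7l. In 129 males, Mapt was at 2.50, 2.55, 2.57, 2.56 and 2.57 with vector and at 4.76, 2.51, 2.61, 4.42 and 2.57 with Cdca7l. Only 3 of 18 129 arrays exceeded background, all of them with Cdca7l, and every 129 vector array was at or below it. B6 females had Mapt at 2.59, 4.95, 6.48, 2.93 and 2.69 with vector and at 4.53, 4.65, 6.45 and 2.77 with Cdca7l. In B6 males, Mapt was at 6.39, 6.98, 2.65, 2.56 and 7.04 with vector and at 5.99, 3.23, 2.67, 5.79 and 5.47 with Cdca7l. In B6, 12 of 19 arrays exceeded background, and 8 were above the highest 129 array. B6 exceeded 129 by 1.58 ± 0.46 (SE), or by 1.30 with values under background raised to it, and both passed. Other probe sets gave differences of 0.91 (1424718_at, adjusted p = 0.0693 in limma) and 0.46 (1424719_a_at, adjusted p = 0.0219).

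Stmn2, a tubulin-binding protein of growing axons, was above background on every array. Stmn2 levels in 129 females were 13.20, 13.93, 14.01 and 13.34 with vector and 13.59, 13.96, 13.53 and 13.63 with Cdca7l. In 129 males, Stmn2 was at 13.14, 13.84, 14.02, 12.91 and 13.50 with vector and at 12.89, 13.02, 14.04, 13.45 and 12.66 with Cdca7l. Every 129 array lay within 12.66 to 14.04. B6 females had Stmn2 at 13.99, 13.44, 13.55, 13.00 and 14.39 with vector and at 13.25, 13.42, 13.17 and 14.41 with Cdca7l. In B6 males, Stmn2 was at 12.98, 13.10, 13.15, 13.64 and 13.00 with vector and at 12.83, 12.79, 13.80, 12.92 and 13.01 with Cdca7l. In B6 the 5 highest values were those of both arrays of label 6(3) and of 2.1(1) in females and of both arrays of label 4(3) in males. The strain difference was -0.13 ± 0.148 (SE; adjusted p = 0.546 in limma), and the ranges of the strains overlapped. Of the remaining tested genes of this role, Gap43, the growth-cone protein, ran from 3.12 to 7.36, the medium neurofilament gene Nefm from 2.11 to 5.41 on 7 arrays above background, and Ina, alpha-internexin, from 2.41 to 4.30 with 4 arrays above it. None of these 3 passed between strains. Gap43 was lowest in labels 3(1) and 5(1) of 129 males (3.45 to 3.62) and in 2(2) and 5.6(1) of B6 males (3.12 to 3.18), in the Cdca7l and the vector array alike, and was at least 4.84 on every other array.

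The neuronal RNA-binding proteins regulate splicing and stability of neuronal messages, and 2 of the 4 were tested with none passing between strains. Celf4, a splicing regulator, was above background on every array. Celf4 levels in 129 females were 10.30, 11.60, 11.64 and 11.49 with vector and 10.23, 11.52, 11.30 and 11.34 with Cdca7l. In 129 males, Celf4 was at 10.75, 11.33, 11.34, 10.66 and 11.03 with vector and at 10.75, 11.39, 11.00, 10.87 and 11.29 with Cdca7l. Both arrays of label 1(3) in 129 females were the lowest of their groups by more than 1. B6 females had Celf4 at 12.11, 11.49, 10.86, 10.54 and 12.19 with vector and at 11.08, 11.54, 10.50 and 12.24 with Cdca7l. In B6 males, Celf4 was at 12.02, 10.59, 10.82, 12.24 and 11.48 with vector and at 11.86, 10.85, 12.11, 11.78 and 11.98 with Cdca7l. Celf4 was higher in B6 by 0.37 ± 0.19 (SE; adjusted p = 0.148 in limma), with 9 of 19 B6 arrays above the highest 129 array. Elavl3, a neuronal member of the ELAV family, varied widely within groups. Elavl3 levels in 129 females were 3.97, 3.65, 6.52 and 4.03 with vector and 6.89, 4.83, 5.08 and 2.33 with Cdca7l. In 129 males, Elavl3 was at 3.42, 6.27, 5.21, 3.81 and 5.12 with vector and at 8.32, 2.49, 6.45, 8.11 and 4.06 with Cdca7l. The highest 129 values, 8.32 and 8.11, were those of male Cdca7l arrays 1(4) and 3(3). B6 females had Elavl3 at 5.82, 5.16, 3.84, 6.98 and 3.27 with vector and at 4.91, 4.45, 5.24 and 3.15 with Cdca7l. In B6 males, Elavl3 was at 6.68, 5.18, 5.45, 4.26 and 6.69 with vector and at 9.39, 5.10, 5.12, 5.86 and 3.98 with Cdca7l. The strain difference of Elavl3 was 0.25 ± 0.533 (SE; adjusted p = 0.757 in limma).

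In the vesicle and SNARE role 5 of 7 tested genes passed between strains, 3 higher and 2 lower in B6, beside 25.2% of all tested probe sets. Syt1 is the calcium sensor that triggers fast vesicle fusion. Syt1 levels in 129 females were 3.63, 5.32, 7.27 and 3.87 with vector and 5.15, 4.55, 4.76 and 3.98 with Cdca7l. In 129 males, Syt1 was at 6.01, 7.83, 4.93, 5.68 and 7.78 with vector and at 6.15, 4.56, 7.28, 5.63 and 5.24 with Cdca7l. All 18 129 arrays were above background. B6 females had Syt1 at 2.65, 2.65, 2.82, 2.80 and 4.31 with vector and at 2.72, 2.70, 2.52 and 5.10 with Cdca7l. In B6 males, Syt1 was at 2.53, 2.68, 2.63, 3.38 and 2.59 with vector and at 2.53, 3.02, 4.50, 2.76 and 2.99 with Cdca7l. Of the 19 B6 arrays 4 exceeded background, and these were the 2 of label 6(3) in females and the 2 of label 4(3) in males. B6 was lower by 2.40 on the log2 scale (difference -2.40 ± 0.325, SE; adjusted p = 1.92e-06 in limma), the smallest p of the 23 genes, and with values under background raised to it the difference was -2.02. Little overlap remained, since 16 of 19 B6 arrays were below the lowest 129 array and 11 of 18 129 arrays above the highest B6 array. The difference was negative in each combination of sex and plasmid, from -3.68 to -1.35. Averaged over its 4 probe sets, Syt1 differed by -0.63 and still passed (adjusted p = 1.50e-06 in limma). The other Syt1 probe sets were above background on too few arrays to be tested, so the size of the difference is that of 1 probe set.

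Syt11 encodes a synaptotagmin that does not bind calcium and was high in all cultures. Syt11 levels in 129 females were 11.45, 11.61, 12.68 and 11.39 with vector and 12.84, 11.75, 11.87 and 11.30 with Cdca7l. In 129 males, Syt11 was at 12.06, 12.50, 11.30, 12.11 and 12.66 with vector and at 12.48, 11.10, 12.64, 12.43 and 11.11 with Cdca7l. The 129 arrays ran from 11.10 to 12.84, lowest in the Cdca7l arrays of labels 3(1) and 5(1) in males. B6 females had Syt11 at 12.20, 12.54, 12.62, 12.82 and 12.11 with vector and at 12.81, 12.52, 12.70 and 12.32 with Cdca7l. In B6 males, Syt11 was at 13.07, 12.96, 12.89, 11.68 and 13.09 with vector and at 12.94, 13.08, 12.29, 12.43 and 12.59 with Cdca7l. All B6 arrays but 4(3) of the male vector group were above 12. B6 exceeded 129 by 0.66 ± 0.175 (SE; adjusted p = 0.0064 in limma), by 0.61 to 0.72 in each combination of sex and plasmid. The 4 other Syt11 probe sets gave 0.46 to 0.90 in the same direction, and 3 of them passed (1456464_x_at did not, adjusted p = 0.087 in limma).

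Syp, synaptophysin, is an abundant membrane protein of synaptic vesicles. Syp levels in 129 females were 7.95, 4.56, 5.28 and 4.66 with vector and 8.02, 4.59, 5.75 and 3.53 with Cdca7l. In 129 males, Syp was at 4.64, 5.25, 3.53, 4.82 and 6.08 with vector and at 7.89, 4.06, 6.09, 7.03 and 3.53 with Cdca7l. In 129 females the arrays of label 1(3) were at 7.95 and 8.02, more than 2 above all others of that strain and sex. B6 females had Syp at 4.67, 6.96, 7.19, 7.69 and 4.67 with vector and at 6.62, 6.99, 7.40 and 4.44 with Cdca7l. In B6 males, Syp was at 8.71, 7.40, 7.07, 4.72 and 8.12 with vector and at 7.92, 6.95, 6.00, 7.28 and 6.99 with Cdca7l. The lowest B6 values were again those of label 6(3) in females, with 2.1(1), and 4(3) in the male vector group. The strain difference was 1.29 ± 0.467 (SE; adjusted p = 0.0409 in limma). This call was lost with no filter on low values, after quantile normalization, with clone labels as a random replicate block, with the mean over its probe sets, and in 21 of 37 fits that left out 1 array. The other Syp probe set, 1456249_x_at, gave -0.13 (adjusted p = 0.453 in limma).

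Vamp2, the SNARE protein of synaptic vesicles, had a small spread within groups. Vamp2 levels in 129 females were 11.09, 10.78, 11.09 and 10.22 with vector and 11.91, 10.38, 11.57 and 10.36 with Cdca7l. In 129 males, Vamp2 was at 11.47, 12, 11.23, 11.41 and 11.81 with vector and at 11.37, 11.18, 11.45, 11.35 and 11.14 with Cdca7l. Arrays of label 4(1) in 129 females were the lowest of both plasmid groups. B6 females had Vamp2 at 11.11, 11.97, 11.81, 11.74 and 11.39 with vector and at 12.34, 12.18, 12.08 and 11.36 with Cdca7l. In B6 males, Vamp2 was at 12.06, 12.06, 12.12, 11.61 and 12.09 with vector and at 11.91, 12.34, 11.70, 11.64 and 11.26 with Cdca7l. B6 exceeded 129 by 0.65 ± 0.135 (SE; adjusted p = 0.00074 in limma), with 8 of 19 B6 arrays above the highest 129 array and 6 of 18 129 arrays below the lowest B6 array. A second Vamp2 probe set, 1420833_at, gave 0.02 (adjusted p = 0.962 in limma). Stx1a, a SNARE protein of the presynaptic plasma membrane, went the other way. Stx1a levels in 129 females were 10.20, 9.11, 9.66 and 7.70 with vector and 8.26, 8.93, 9.33 and 8.67 with Cdca7l. In 129 males, Stx1a was at 9.25, 8.26, 8.79, 9.12 and 9.07 with vector and at 9.10, 9.95, 8.92, 8.81 and 9.43 with Cdca7l. The highest 129 value, 10.20, was that of 129 female vector 1(3). B6 females had Stx1a at 7.60, 7.99, 8.91, 7.83 and 9.30 with vector and at 7.62, 7.60, 8.59 and 8.85 with Cdca7l. In B6 males, Stx1a was at 8.95, 8.0, 8.02, 8.92 and 8.35 with vector and at 7.42, 7.29, 8.93, 7.81 and 4.81 with Cdca7l. B6 was below 129, with a difference of -0.98 ± 0.262 (SE; adjusted p = 0.0070 in limma), and the B6 minimum of 4.81 stood more than 2 below the next lowest array of its group. Syn1, which tethers vesicles to actin, ran from 7.0 to 10.65 and Vamp1, a relative of Vamp2, from 2.81 to 6.70, and neither passed.

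**Figure D2:**
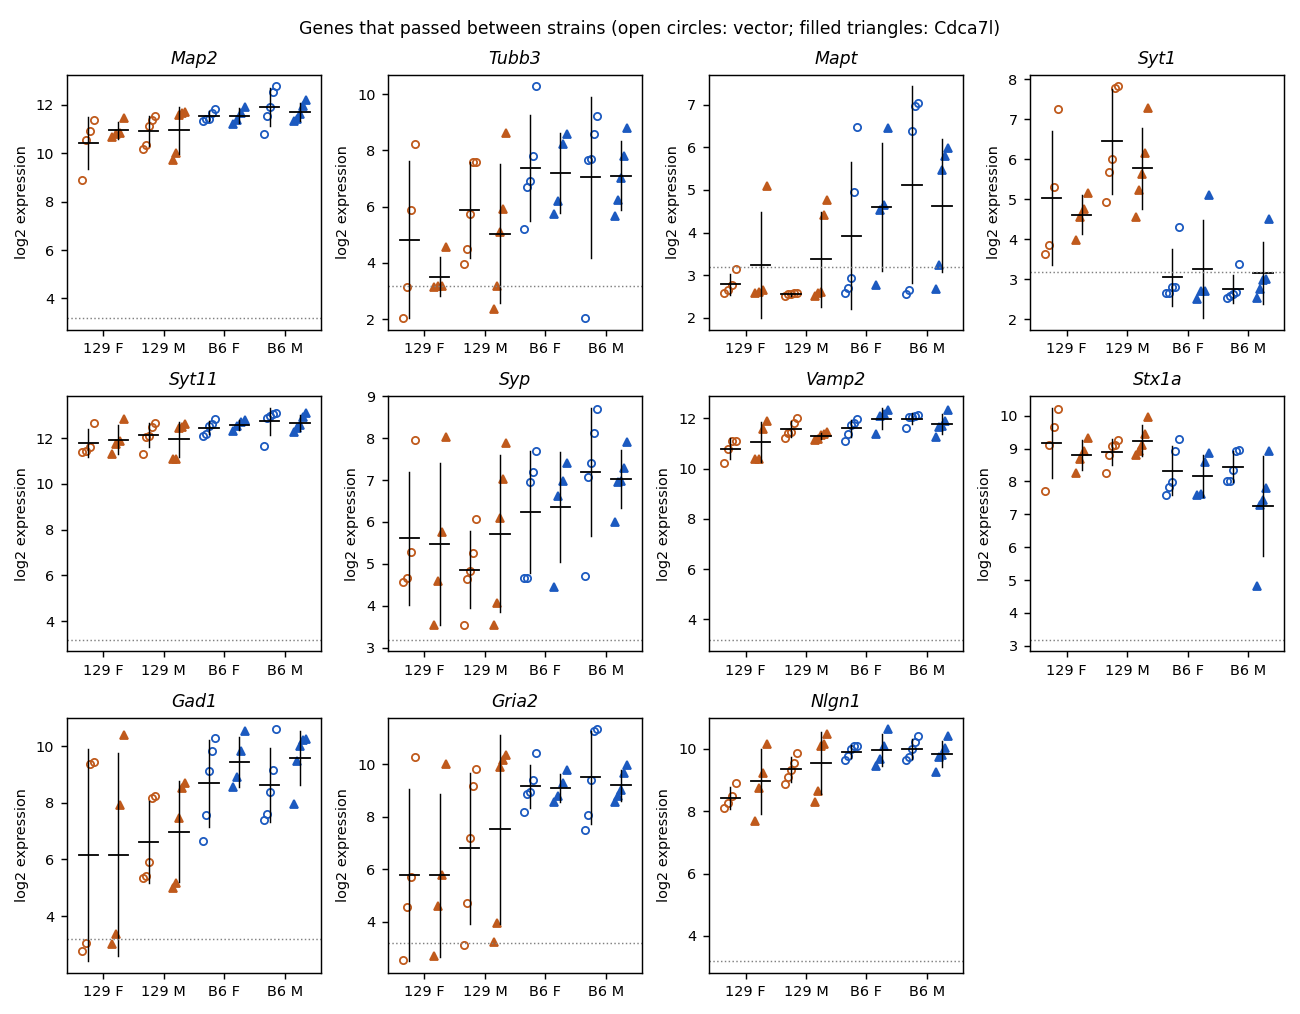
Log2 expression of the 11 genes that passed between strains, by strain and sex (129 orange, B6 blue), with vector arrays as open circles and Cdca7l arrays as filled triangles. Bars give the mean and SD of each group of 4 or 5 arrays, and the dotted line is the background level of 3.189. Syt1 lies above the line on all 129 arrays and at or below it on 15 of 19 B6 arrays, and Gria2 and Gad1 of B6 show a narrower range than those of 129.

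Gad1, the enzyme that makes GABA from glutamate, was the single tested gene of the transmitter role, with its promoter shown above. Gad1 levels in 129 females were 9.45, 3.06, 9.37 and 2.77 with vector and 10.39, 3.01, 7.92 and 3.36 with Cdca7l. In 129 males, Gad1 was at 5.90, 8.18, 5.35, 5.43 and 8.23 with vector and at 8.51, 5.18, 7.46, 8.71 and 5.00 with Cdca7l. In 129 females the values fell apart by label, with 1(3) and 2(3) at 7.92 to 10.39 and 2(1) and 4(1) at 2.77 to 3.36 in both plasmid groups. B6 females had Gad1 at 6.64, 9.83, 9.13, 10.29 and 7.56 with vector and at 10.52, 9.82, 8.91 and 8.57 with Cdca7l. In B6 males, Gad1 was at 7.62, 10.60, 9.16, 7.39 and 8.37 with vector and at 10.27, 9.47, 7.97, 10.02 and 10.23 with Cdca7l. No B6 array was below 6.64, and 9 of 18 129 arrays were. B6 exceeded 129 by 2.61 ± 0.664 (SE; adjusted p = 0.0048 in limma), a fold of 6.11, and by 2.01 to 3.28 in each combination of sex and plasmid. The SD over arrays was 2.48 in 129 (n = 18) and 1.20 in B6 (n = 19).

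The postsynaptic role comprises the AMPA-type glutamate receptor subunits Gria1 and Gria2, the scaffold protein Dlg4 (PSD-95) and the adhesion protein Nlgn1, and Gria2 and Nlgn1 passed between strains. Gria2 encodes the subunit that makes AMPA receptors impermeable to calcium. Gria2 levels in 129 females were 4.58, 5.72, 10.29 and 2.54 with vector and 10.01, 5.78, 4.61 and 2.68 with Cdca7l. In 129 males, Gria2 was at 4.70, 9.83, 7.19, 3.12 and 9.16 with vector and at 10.16, 3.96, 10.33, 9.91 and 3.25 with Cdca7l. Among 129 males the labels 3(1) and 5(1) were at 3.12 to 4.70 and the rest at 7.19 to 10.33, the same split as for Gap43. B6 females had Gria2 at 8.94, 8.85, 9.41, 10.41 and 8.19 with vector and at 9.77, 8.80, 9.28 and 8.57 with Cdca7l. In B6 males, Gria2 was at 11.25, 9.40, 8.06, 7.50 and 11.33 with vector and at 9.65, 9.02, 8.79, 8.57 and 9.95 with Cdca7l. All B6 arrays were at 7.50 or above, whereas 11 of 18 129 arrays were below that. The strain difference was 2.77 ± 0.759 (SE; adjusted p = 0.0083 in limma), a fold of 6.84. A second Gria2 probe set, 1434146_at, gave 2.29 (adjusted p = 0.0121 in limma), and probe set 1453098_at gave 0.25 (adjusted p = 0.648).

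Nlgn1 encodes neuroligin 1, a postsynaptic partner of neurexins. Nlgn1 levels in 129 females were 8.48, 8.25, 8.90 and 8.10 with vector and 10.15, 8.74, 9.24 and 7.68 with Cdca7l. In 129 males, Nlgn1 was at 8.86, 9.87, 9.33, 9.09 and 9.55 with vector and at 10.17, 8.28, 10.47, 10.10 and 8.64 with Cdca7l. Values of 129 males ran from 8.28 to 10.47 and those of 129 females from 7.68 to 10.15. B6 females had Nlgn1 at 9.64, 10.09, 9.98, 10.08 and 9.77 with vector and at 10.63, 10.09, 9.68 and 9.45 with Cdca7l. In B6 males, Nlgn1 was at 9.74, 10.40, 10.00, 9.64 and 10.22 with vector and at 9.79, 10.02, 9.73, 10.42 and 9.27 with Cdca7l. The B6 arrays lay within 9.27 to 10.63, and 11 of 18 129 arrays were below this range. B6 exceeded 129 by 0.87 ± 0.194 (SE; adjusted p = 0.0016 in limma), by 0.32 to 1.48 in the combinations of sex and plasmid.

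Gria1 had the largest spread within groups of all 23 genes (SD 2.40). Gria1 levels in 129 females were 8.79, 3.04, 4.30 and 3.10 with vector and 11.62, 4.16, 8.99 and 4.98 with Cdca7l. In 129 males, Gria1 was at 12.62, 6.67, 6.22, 12.20 and 9.73 with vector and at 12.61, 11.67, 8.55, 12.48 and 10.92 with Cdca7l. In 129 females 3 of 4 vector arrays were at 3.04 to 4.30, while 129 males had no array below 6.22. B6 females had Gria1 at 4.21, 10.76, 9.85, 9.13 and 6.68 with vector and at 10.50, 10.56, 10.18 and 6.71 with Cdca7l. In B6 males, Gria1 was at 9.88, 10.96, 9.82, 7.15 and 9.48 with vector and at 6.09, 10.39, 8.30, 11.10 and 9.25 with Cdca7l. Gria1 did not pass between strains, at 0.78 ± 0.77 (SE; adjusted p = 0.476 in limma), and its difference changed sign between females (3.32 with vector, 2.04 with Cdca7l) and males (-0.03 and -2.22). Dlg4 ran from 4.75 to 9.75 and did not pass between strains, with a difference of 0.36 ± 0.345 (SE; adjusted p = 0.459 in limma).

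Reln, a secreted glycoprotein that guides migrating neurons, was above background on 17 of 37 arrays. Reln levels in 129 females were 2.45, 3.04, 5.81 and 2.41 with vector and 4.07, 2.66, 2.56 and 2.41 with Cdca7l. In 129 males, Reln was at 5.14, 2.60, 2.64, 4.93 and 5.88 with vector and at 7.18, 3.82, 4.37, 7.01 and 5.28 with Cdca7l. The 129 values above 7 were those of male Cdca7l arrays 1(4) and 3(3). B6 females had Reln at 2.33, 2.99, 2.32, 2.33 and 2.64 with vector and at 4.05, 3.54, 2.28 and 2.50 with Cdca7l. In B6 males, Reln was at 5.29, 5.97, 2.54, 2.69 and 5.19 with vector and at 2.41, 2.25, 3.21, 5.38 and 2.34 with Cdca7l. Reln differed between strains by -0.76 ± 0.412 (SE; adjusted p = 0.172 in limma). Uchl1, a deubiquitinating enzyme abundant in neurons, was among the steadiest genes, with a within-group SD of 0.267. Uchl1 levels in 129 females were 13.50, 13.42, 13.19 and 12.97 with vector and 13.37, 13.33, 12.85 and 13.16 with Cdca7l. In 129 males, Uchl1 was at 12.82, 13.25, 13.67, 12.78 and 13.15 with vector and at 13.00, 12.60, 13.26, 13.26 and 12.31 with Cdca7l. Labels 3(1) and 5(1) of 129 males were the lowest of their groups. B6 females had Uchl1 at 13.76, 13.13, 13.29, 13.48 and 13.21 with vector and at 13.28, 13.18, 13.45 and 13.21 with Cdca7l. In B6 males, Uchl1 was at 13.33, 13.48, 13.14, 13.38 and 13.35 with vector and at 13.21, 13.47, 13.14, 12.97 and 13.14 with Cdca7l. Its strain difference was 0.18 ± 0.0939 (SE; adjusted p = 0.162 in limma).

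Other neuronal genes, a list of 92 that holds none of the members, were set beside them. Of its 54 tested genes 19 passed between strains, 12 higher and 7 lower in B6 (35.19%, against 25.2% of all tested probe sets). The largest positive differences were those of the neuropeptide Npy (4.30 ± 0.523, SE; adjusted p = 2.82e-07 in limma), the AMPA receptor subunit Gria4 (2.87 ± 0.451), the adhesion protein Nlgn3 (2.62 ± 0.691), the vesicle protein Syngr1 (1.78) and the active-zone protein Pclo (1.55). Npy lay at 3.82 to 9.80 in 129 and at 8.88 to 12.87 in B6, and Gria4 at 3.63 to 9.09 and 7.70 to 10.96. The largest negative ones were those of the synaptotagmin Syt4 (-2.67 ± 0.417), the RNA-binding protein Elavl2 (-2.47 ± 0.629), the NMDA receptor subunit Grin2b (-1.97 ± 0.32) and the transcription factors Sox11 (-1.85) and Insm1 (-1.66). By role, 8 of 15 tested postsynaptic and adhesion genes passed, 7 of them higher in B6, against 3 of 13 presynaptic and release genes (2 higher, 1 lower), 4 of 13 cytoskeletal and RNA-binding genes (2 each way), 1 of 3 channel and transmitter genes (higher) and 3 of 10 genes of neuronal transcription and commitment (all lower). Among 80 with a probe set, 34 were above background on all 37 arrays, including the transcription factors Dlx2 (8.55 to 12.99) and Sox4 (9.16 to 13.78). The list, and these 34, also hold Rest (9.67 to 12.92) and Rcor1 (9.75 to 11.77). Rest encodes REST, the repressor of neuronal genes outside neurons named above, so not every gene of the list marks neurons. A further 19 were at background on all arrays. They included the transcription factors Neurod2, Neurog1 and Neurog2, the vesicular GABA transporter Slc32a1 and the transmitter markers Th, Chat and Sst.

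Markers of other cells were compared between the strains as well, beside the 25.2% of all tested probe sets that passed. Of 11 tested astrocyte markers 5 were higher in B6 (Slc1a3 by 0.96, Aqp4 by 0.93, Sox9 by 0.77, Fgfr3 by 0.76 and Glul by 0.38), and of 5 tested oligodendrocyte lineage markers Olig2 (1.08) and Cnp (0.81) were. Of 7 tested fibroblast and meningeal markers 4 were lower in B6, namely Col3a1 (-5.43 ± 0.881, SE; adjusted p = 3.62e-05 in limma), Dcn (-3.04), Col1a1 (-3.02) and Col1a2 (-2.75). Their summed linear level per array was 3081.4 to 26792 in 129 females, 11514 to 68222 in 129 males, 4555.9 to 15838 in B6 females and 4311.1 to 8604 in B6 males, in arbitrary units. The summed level of the 12 astrocyte markers ran from 33818 to 130760 in 129 females, from 50661 to 125210 in 129 males, from 63942 to 134820 in B6 females and from 60303 to 136320 in B6 males, and that of the oligodendrocyte lineage from 2517.9 to 17236, 6088.4 to 21164, 6034 to 17031 and 8315.2 to 22831 in the same order. Of the oligodendrocyte list Mag, Gpr17 and Myrf were at background on every array. Of 9 tested S and G2/M phase genes Aurka, Mcm5 and Pcna were lower in B6. No neural progenitor marker of 8 tested and no microglia marker of 6 passed between strains. Col3a1 was above background on 15 of 18 129 arrays and on none of 19 B6 arrays, so the measured bound, with B6 at the background level, is at least 26.2-fold lower in B6. Dcn was above it on 7 of 18 and on 1 of 19 arrays, and with values under background raised to it the difference was -2.77. The part of any of these in the strain differences of the neuronal genes was not tested.

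Between the sexes none of the 23 genes passed (0.321% of all tested probe sets did). An unadjusted p under 0.05 in limma was found for 7 of the 23 genes and for 18.1% of all tested probe sets. Gria1, an AMPA receptor subunit, was higher in males by 2.34 ± 0.77 (SE; adjusted p = 0.134 in limma), and a second Gria1 probe set gave 2.55. In 129 its median was 4.64 in females (3.04 to 11.62, n = 8) and 11.29 in males (6.22 to 12.62, n = 10). In B6 the medians were 9.85 (4.21 to 10.76, n = 9 as labelled) and 9.65 (6.09 to 11.10, n = 10), so the ranges overlapped in both strains. Reln differed by 1.31 ± 0.412 (adjusted p = 0.124 in limma): it was above background on 2 of 8 female and 8 of 10 male arrays of 129 and on 2 of 9 and 5 of 10 of B6. Dlg4 differed by 0.95 ± 0.345 (adjusted p = 0.163 in limma), with medians of 6.37 and 7.69 in 129 females and males and of 7.73 and 7.55 in B6. Stmn2 was lower in males by the fitted difference of -0.40 ± 0.148 (adjusted p = 0.173 in limma). The other genes with an unadjusted p under 0.05 were Nefm (-0.52), Syn1 (0.56) and Vamp2 (0.30).

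The count between sexes depended on how arrays were weighted. With array weights in limma, which give arrays far from the fit less influence and whose estimation stopped before reaching its tolerance, 25.2% of all tested probe sets passed between sexes and 47.4% between strains. Beside that background 8 of 23 genes passed between sexes: Gria1 (3.01, adjusted p = 0.0035), Dlg4, Reln, Vamp2, Syn1, Nlgn1, Stmn2 and Nefm. Without 129 female Cdca7l 1(3), which had the highest Gria1 value of the 129 females, Gria1 passed at 2.69 (adjusted p = 0.0403 in limma). Without the 2 arrays that stood apart by their upper quartile or their Xist value, the differences were 2.74 for Gria1 (adjusted p = 0.0611 in limma), 1.22 for Reln (0.102), 1.20 for Dlg4 (0.0567) and -0.48 for Stmn2 (0.0752), and none passed. Among the 54 other neuronal genes none passed between the sexes in the main fit. Of these 54, 19 had an unadjusted p under 0.05 in limma, a larger share than the 18.1% of all tested probe sets. The fibroblast and meningeal list had a median difference of 0.85, males minus females, and the astrocyte list one of 0.43, with no call in either, and their part in the differences above was not tested.

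The difference between the sexes was compared between strains as well. No gene passed in the interaction of sex and strain (0% of all tested probe sets did). An unadjusted p under 0.05 in limma was found for 15.3% of all tested probe sets and for 3 of the 23 genes. These were Gria1 (-3.80 ± 1.54, SE; adjusted p = 0.247), Ina (0.85 ± 0.282; adjusted p = 0.184) and Syt1 (-1.48 ± 0.65; adjusted p = 0.281). The Gria1 value is the male-female difference in B6 minus that in 129. With array weights 24.3% of all tested probe sets passed here, and 7 of the 23 genes did, Gria1 at -6.40 (adjusted p = 0.00198 in limma), Vamp2, Dlg4, Nlgn1, Ina, Gad1 and Nefm.

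**Figure D3:**
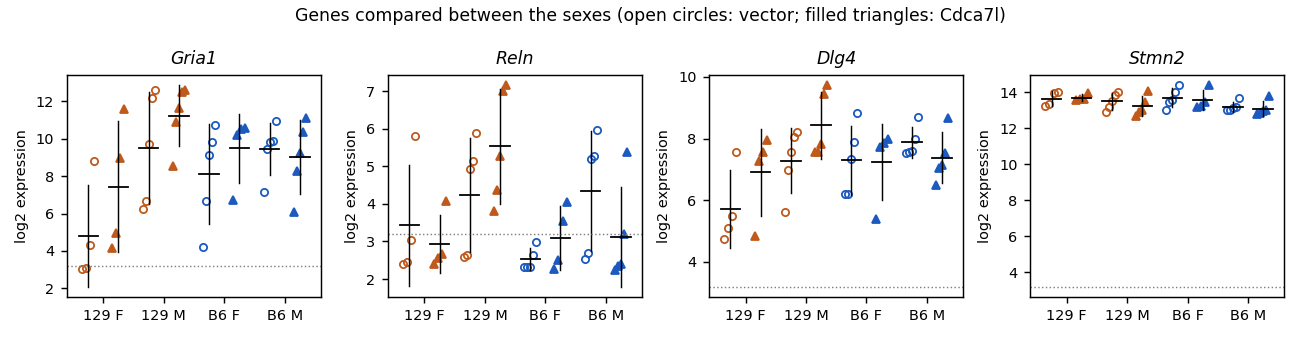
Log2 expression of Gria1, Reln, Dlg4 and Stmn2, the genes with the 4 smallest p-values between sexes, by strain and sex, with vector arrays as open circles, Cdca7l arrays as filled triangles, bars for the mean and SD of each group of 4 or 5 arrays, and the background level of 3.189 as a dotted line. None of the 4 passed; Gria1 of 129 females has 3 of 4 vector arrays between 3.04 and 4.30, and 129 males lie at 6.22 or above.

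Cdca7l against vector was the contrast the cultures were made for. Averaged over strain and sex, none of the 23 genes passed in limma, none had an unadjusted p under 0.05, and 0.00782% of all tested probe sets passed. Differences ran from -0.57 ± 0.652 for Tubb3 to 1.33 ± 0.77 (SE) for Gria1, the smallest adjusted p was 0.999 in limma, and the median was 0.06 against 0.02 over all tested probe sets. For the steadier genes the differences of the highest probe sets were small: 0.01 ± 0.175 for Syt11, 0.04 ± 0.135 for Vamp2, -0.11 ± 0.148 for Stmn2 and -0.15 ± 0.0939 for Uchl1. The other Vamp2 probe set, 1420833_at, did not follow, at -0.46 ± 0.22 (SE; adjusted p = 0.999 in limma). For the genes with a large spread the standard errors were several times larger, 0.77 for Gria1 and 0.759 for Gria2, so a change of 1 on the log2 scale in either would not be detectable with these arrays. Gria1 differed by 2.63 ± 1.65 in 129 females, 1.76 ± 1.47 in 129 males, 1.36 ± 1.56 in B6 females and -0.43 ± 1.47 in B6 males. No gene passed in any single strain and sex, where 0% of all tested probe sets passed, with an unadjusted p under 0.05 for 0 genes in 129 females, 0 in 129 males, 0 in B6 females and 1 in B6 males (Stx1a, -1.19 ± 0.5). Of all tested probe sets 1.97%, 1.65%, 0.555% and 2.1% had an unadjusted p under 0.05, in the same order. The interactions of Cdca7l with sex and with strain had no call among the genes either, again with 0% of all tested probe sets, and 1 gene each at an unadjusted p under 0.05 (Vamp2, -0.57, and Dlg4, -1.44). Of all tested probe sets 0.719% and 1.68% were under that level. Of the 54 other neuronal genes none passed and 1 had an unadjusted p under 0.05. This fit takes no account of shared clone labels. With clone labels as a random replicate block 1 of the 23 genes had an unadjusted p under 0.05 and none passed: Syn1, at -0.41 ± 0.199 (SE; unadjusted p = 0.0455, adjusted p = 0.966 in limma), against -0.42 ± 0.266 without the block. Syn1 was lower with Cdca7l in 12 of 15 same-label pairs. Among the other 22 genes the count of pairs with a higher Cdca7l array ran from 5 to 11 of 15.

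Spread within groups was itself large for these genes. The median within-group SD was 0.822 over the 23 genes and 0.643 over all 25579 tested probe sets, and 8 of the 23 were above the 90th percentile of all tested probe sets. These were Gria1 (SD 2.40, percentile 99.4), Gria2 (2.37, 99.3), Gad1 (2.07, 98.4), Tubb3 (2.03, 98.1), Elavl3 (1.66, 95.1), Syp (1.45, 91.6), Mapt (1.43, 91.1) and Gap43 (1.43, 90.9). At the other end stood Uchl1 (0.267, 10.95), Vamp2 (0.405, 25.6) and Stmn2 (0.445, 30.0). The percentile compares each SD with those of all tested probe sets.

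Arrays that shared a clone label were closer to each other. Within a strain and sex there were 15 pairs of a Cdca7l and a vector array with the same label and 71 pairs with different labels. For all 23 genes the median absolute difference was smaller in the 15 same-label pairs, as it was for 87.29% of all tested probe sets, and for 17 genes (73.91%, against 54.78% of all tested probe sets) it was larger by more than 1.5 times in the unlike pairs. Mapt, the tau gene, differed by a median of 0.109 within labels and 1.72 between them. Gap43 differed by 0.241 and 1.09, Syp by 0.581 and 1.72, Gad1 by 0.711 and 1.65, Gria2 by 0.731 and 1.58, and Gria1 by 1.15 and 2.10. Smaller contrasts were seen for Syt1 (0.554 and 0.619) and Uchl1 (0.190 and 0.232). The pairs are not independent of each other, so these are descriptions.

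Single pairs departed from this pattern. In 129 females, Gria2 was 4.58 with vector and 10.01 with Cdca7l for label 1(3), and 10.29 and 4.61 for label 2(3). Tubb3 of label 2(3) was 8.23 and 3.15. In 129 males, label 3(3) had Gria1 at 6.22 with vector and 12.48 with Cdca7l, Syp at 3.53 and 7.03, Reln at 2.64 and 7.01, and Dlg4 at 5.60 and 9.45. In B6 males, Gria1 of label 2(2) was at 9.88 and 6.09, and Tubb3 of label 3(5) at 2.05 and 5.67. Across all tested probe sets, these labels 2(3) of 129 females and 3(3) of 129 males were also the 2 whose arrays deviated least together from their group means, with correlations of 0.061 and -0.0887 where the other 13 same-label pairs had 0.376 to 0.775.

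**Figure D4:**
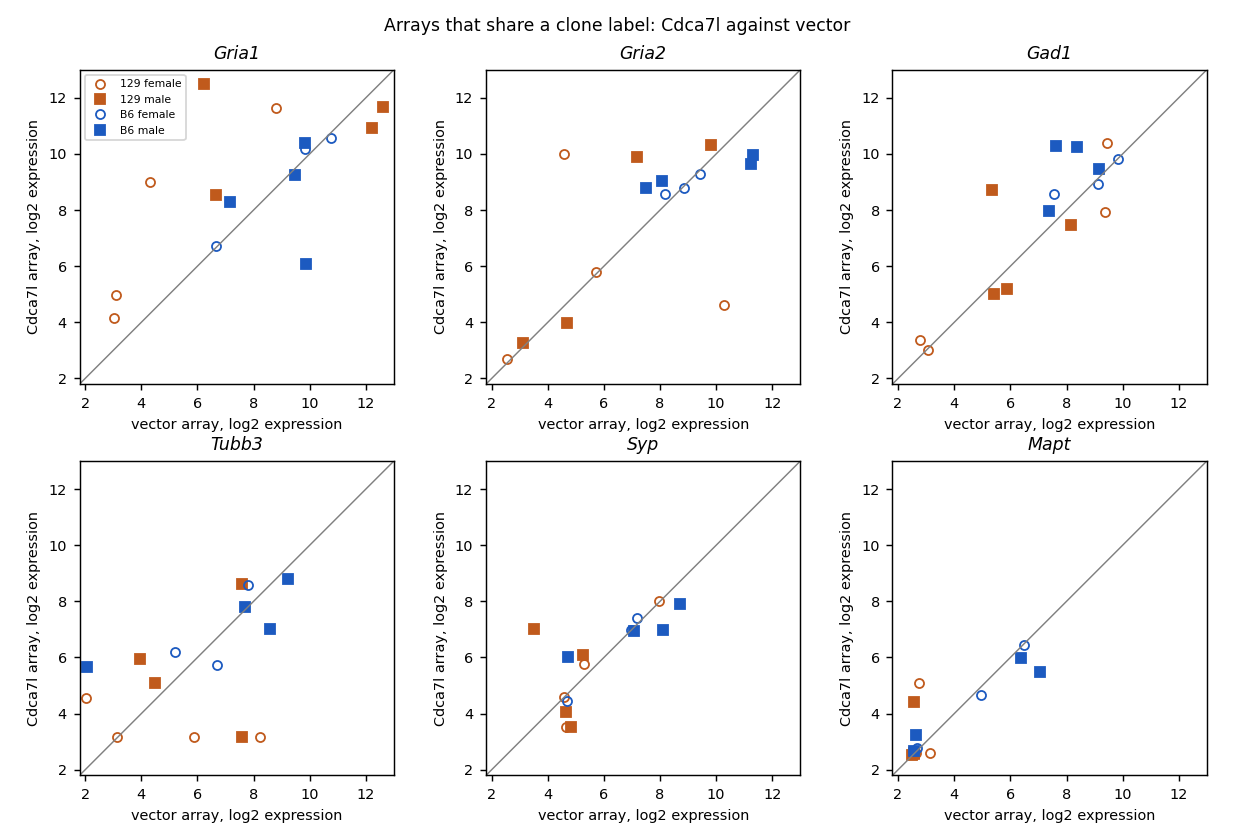
Log2 expression on the Cdca7l array (vertical) against the vector array of the same clone label (horizontal) for the 15 pairs, in 6 genes with a large spread, with 129 in orange, B6 in blue, females as open circles and males as filled squares, and the line of equal values in grey. Mapt lies near the line for most pairs, and Gria1 and Gria2 have single 129 pairs far from it, such as Gria2 at 10.29 with vector and 4.61 with Cdca7l.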

How the data were processed

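Each of 37 cultures was measured on 1 one-colour Affymetrix array. The deposited values are log2 expression for 45101 probe sets, made by the authors with GCRMA and Partek 6.5, per the submitters' processing notes; joint or separate normalization of the arrays is not stated there. GCRMA draws low signals toward a floor, so differences near background are compressed. Values were used as deposited. Gene names came from the platform annotation, and the 32 probe sets were matched by Entrez ID to GRCm38.p6.

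A probe set was tested where it exceeded the table median, 3.189, on at least 4 arrays: 25579 were tested, 19458 were not, and 64 controls were left out. One linear model in limma 3.58.1 (R 4.3.3) held a mean for each of 8 groups (29 residual degrees of freedom), with 10 comparisons, each adjusted by Benjamini-Hochberg over all tested probe sets and passed under 0.05. The fit was tested on simulated data. The genes and lists were chosen with earlier results of these data known. Full values are given for genes that passed, and in each role for the 2 with the highest mean and the 1 with the largest within-group SD among tested genes; other genes are given by range, and up to 10 further neuronal genes per comparison by size of difference. Values named outside this rule (Dlg4, Gap43 and Syn1, and single pairs and arrays) were chosen after they were seen. Log2 values have no read depth; precision is limited by how many arrays each group holds. Arrays of the same clone label deviated together from their group means in every pair of B6 females (0.432 to 0.775, 3 pairs) and B6 males (0.376 to 0.572, 4 pairs) but not in every pair of 129 females (lowest 0.061) or 129 males (lowest -0.0887). The main fit used no replicate block. Alternatives covered the variance prior, the filter, the normalization, array weights, replicate blocks, low values, other probe sets and left-out arrays. Promoters came from RefSeq.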

Additional observations from a re-analysis of the deposited data

Results flagged for a closer look

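Of 174 sets of 4 or 5 arrays of 1 gene and group that were examined, 22 had a highest or lowest array far from the rest (its gap to the nearest array, divided by the range of the group, above Dixon's 95% critical value). Chance alone flags about 1 in 20 such sets.

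Label 4(3) of B6 males stood apart with both plasmids: Stmn2 was at 13.64 with vector and 13.80 with Cdca7l and Syt1 at 3.38 and 4.50, in each case the highest of the group, and with vector Syt11 (11.68) and Vamp2 (11.61) were the lowest. Label 6(3) of B6 females had the highest Syt1 of its groups, 4.31 with vector and 5.10 with Cdca7l, and with Cdca7l the lowest Gria1 (6.71) and Dlg4 (5.38). Label 2(2) of B6 males had the highest Ina, 3.74 with vector and 3.77 with Cdca7l. Label 1(3) of 129 females had the lowest Celf4, 10.30 with vector and 10.23 with Cdca7l. These 4 labels recur in both plasmid groups.

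Other single arrays were high or low in 1 group. On 129 female Cdca7l 1(3), Tubb3 (4.55), Mapt (5.10) and Reln (4.07) were the highest of the group. On 129 female vector 2(3), Elavl3 (6.52) and Syt11 (12.68) were the highest. On B6 male Cdca7l 3(5), Celf4 (10.85) and Syn1 (7.03) were the lowest, and on B6 male vector 3(5) Tubb3 (2.05) was.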

How the results depend on the processing

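Between strains 11 genes passed, and 9 to 14 did under 8 alternatives, 9 with the mean over all probe sets (22 tested) and 14 with array weights, and 10 to 12 with each array left out in turn. The share of all tested features that passed was 25.2% in the main fit. Under the 8 alternatives it ran from 12.1% (no filter on low values) to 47.4% (array weights), and it was 27.7% with the mean over all probe sets. With clone labels as a random replicate block (correlation 0.409) 10 passed, beside 16.6% of all tested probe sets. Apart from Syp, and from Map2 with the mean over all probe sets (-0.038), the called genes kept their direction and call in all of these. Between sexes 8 genes passed with array weights (25.2% of all tested probe sets), against 0 to 1 with each array left out, and in the interaction of sex and strain 7 passed with array weights (24.3%). The iterative array weights stopped before reaching their tolerance, and the cause of the change was not tested. The followed genes had no call in any Cdca7l comparison under any alternative, the fixed replicate block (11 residual degrees of freedom) included. Of all tested features 0.00391% to 0.0169% passed in the contrast averaged over strain and sex. With array weights 0.0117% passed in 129 females, 0.383% in 129 males, 0.285% in B6 females and 0.199% in B6 males. In the same order 0, 4, 2 and 1 of the followed genes had an unadjusted p under 0.05 in limma.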
